A study of Mus musculus with 14 samples.

Results

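The genes described here are 54 mouse genes of mitosis, the kinetochore and cytokinesis, chosen by name from textbook roles in cell division. The choice was made with earlier results of these data known. Of the 54, 53 had a named probe on the array, and 51 had a probe that passed the filter on low values and could be tested, of 14867 named genes tested in all. Ncaph, a subunit of the condensin complex, had no named probe. Aurkb, the kinase of the chromosomal passenger complex, and Cenpf, a large kinetochore protein, had a probe that was not measured above background often enough to be tested.

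Mitosis begins when Cdk1 bound to cyclin B phosphorylates the proteins that condense chromosomes and build the spindle. Kinetochores assemble on centromeres that carry the histone variant Cenpa and hold spindle microtubules, and a checkpoint delays anaphase until every chromosome is attached. The anaphase-promoting complex with Cdc20 then destroys securin and cyclin B, separase cuts cohesin, and a central spindle and contractile ring divide the cell. Most of these genes are transcribed in the later phases of the cell cycle, so their RNA is low in tissue with few dividing cells, such as the adult mouse ventricle.

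The hearts came from male C57BL/6 mice aged 8 weeks with no gene alteration stated. In the MI 14 days group (5 arrays) and the MI 3 days group (5 arrays), the left anterior descending coronary artery was ligated for good and the ventricular border zone was taken 14 or 3 days later. The sham group (4 arrays) had surgery without ligation, and its time of harvest is not stated. RNA of 1 sample per array was hybridised to 1-colour Agilent mouse arrays, and the design text speaks of separate mice. The border zone holds surviving muscle, infiltrating cells and young scar together, so fewer cells of a type and less RNA per cell cannot be told apart.

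A level here is the log2 of a probe's Cy3 intensity minus the 75th percentile of that array, so that 0 means as bright as that percentile, and levels of different genes are not compared. The percentile itself lay between 189 and 443 intensity units, and 54.8% to 66.1% of probes were well above background on the 10 arrays with scanner output. Changes are log2 differences of group means with their standard errors from limma, and a change passed the test at a Benjamini-Hochberg adjusted p under 0.05 over all 32257 tested probes. Where a gene had several probes, the brightest tested probe, by its mean over all 14 arrays, stands for it. Since that mean takes in the MI 3 days arrays, the choice can favour a probe that rose there. Where a group was not above background on any of its scanner arrays, the fold is given as a lower bound.

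At MI 3 days 49 of the 51 tested genes rose against sham (96.1%, where 25.5% of all tested probes rose), and on all 49 the lowest MI 3 days array lay above the highest sham array, as it did for 22.6% of all tested probes. The median change of the 51 was 3.69 on the log2 scale, or 3.63 with the 7 genes known only by a bound set at their bound, against -0.19 over all tested probes. With background correction by normexp on the 10 scanner arrays the median was 2.10. With those 7 genes at their bound, 46 of the 51 changed by at least 2-fold and 33 by at least 8-fold. Of the 51, 12 passed the filter only through the MI 3 days arrays (Cdc25c, Plk4, Melk, Bub1, Bub1b, Ttk, Nuf2, Kif11, Kif2c, Kif4, Top2a and Ncapg), so the filter itself favoured a higher level at MI 3 days for them. Of the other 39, 37 rose at MI 3 days. Pttg1, which encodes securin, fell with arrays that did not overlap (1.96% of members, where 39.7% of all tested probes fell and 34.1% lay wholly lower), and Cenpa did not pass the test. At MI 14 days 13 of the 51 passed as higher than sham (25.5%, against 12.8% of all tested probes), 3 passed as lower (5.88%, against 19.8%) and 35 did not pass. The median change at MI 14 days was 0.43, against -0.09 over all tested probes. Between the times, 49 of the 51 were lower at MI 14 days than at MI 3 days (96.1%, against 22.9% of all tested probes) and Pttg1 was higher (1.96%, against 32.7%), with a median of -3.29 (-3.26 with 6 genes at their bound) against 0.13. The arrays of these 2 groups did not overlap for the same 49 and for Pttg1, where 18.8% of all tested probes lay wholly lower and 21.2% wholly higher at MI 14 days. For the 12 genes named above the filter also favoured a lower level at MI 14 days than at MI 3 days. Of the other 39, 37 were lower. In either direction 65.2% of all tested probes passed at MI 3 days against sham, 32.5% at MI 14 days against sham and 55.6% between the times. The comparisons with sham share the same 4 sham arrays.

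**Figure D1:**
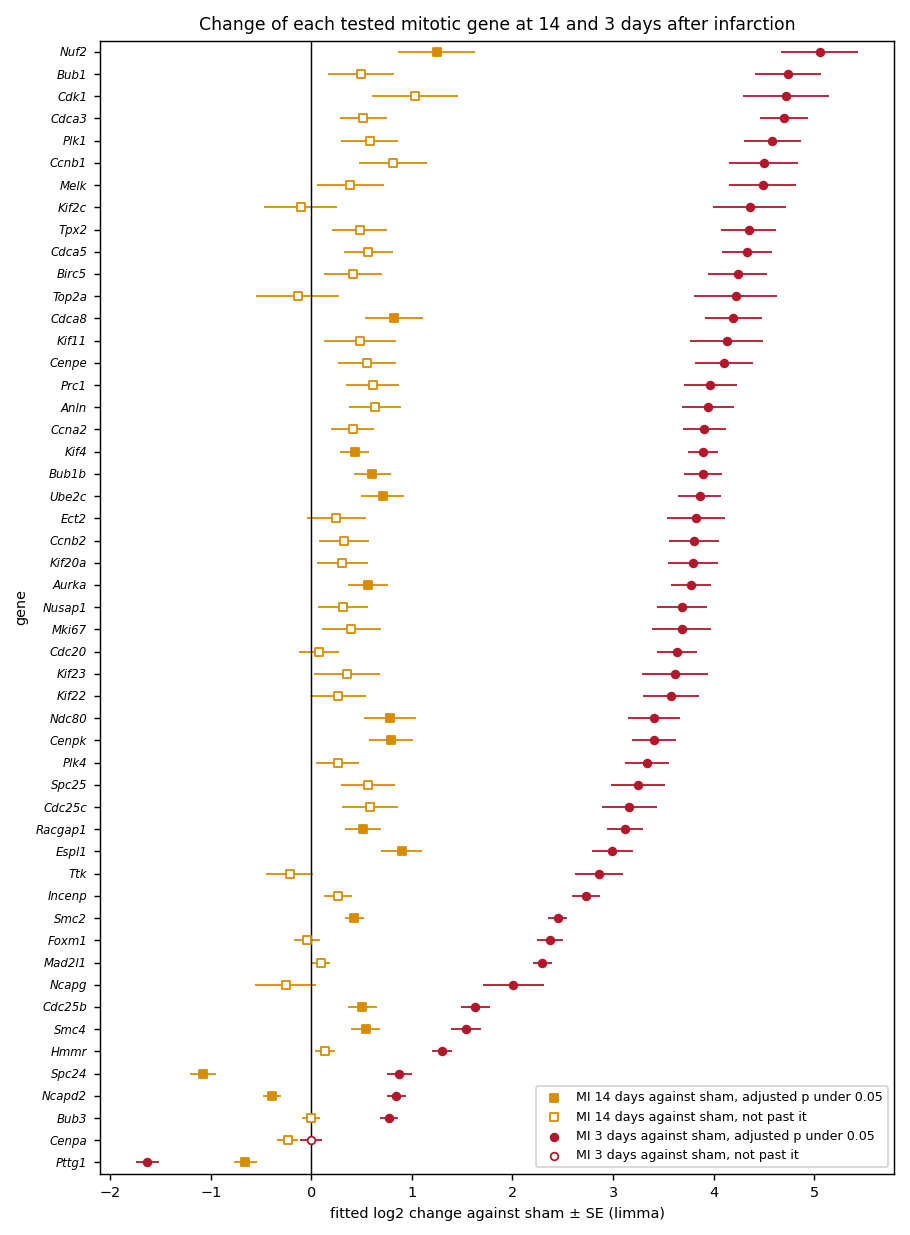
Fitted log2 change against sham (x axis, points with standard-error bars) of each of the 51 tested genes (y axis), for MI 14 days (orange squares) and MI 3 days (red circles), with filled symbols past an adjusted p of 0.05. The red points lie far right of the orange ones for all but the genes at the bottom of the plot, and Cenpa lies at 0 at MI 3 days while Pttg1 lies left of 0 at both times; values of genes not above background in sham are fitted values, not bounds.

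Promoters are shown because most of the genes moved together at MI 3 days. The CHR, an element known in human and mouse cells as a binding site of the MuvB complex, and the CCAAT box, bound by NF-Y, are textbook features of late cell cycle promoters. RefSeq promoter windows on GRCm38.p6, 250 bases before to 50 after the annotated start, were at hand for 45 members (50 windows, since 4 members have several). The letters TTTGAA on either strand, taken for the CHR, stood in 70.0% of member windows, 36.8% of 106 windows of other mitotic genes and 17.9% of all 32851 windows. CCAAT on either strand stood in 76.0% of member windows, 60.4% of those of the other mitotic genes and 37.4% of all windows. Both motifs stood in 62.0% of member windows, 23.6% of the others and 6.95% of all windows, and their letters overlapped in 1 member window. The gene list was drawn from division genes, many of which are known for these motifs, so the shares describe the list and test nothing.

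**Figure D2:**
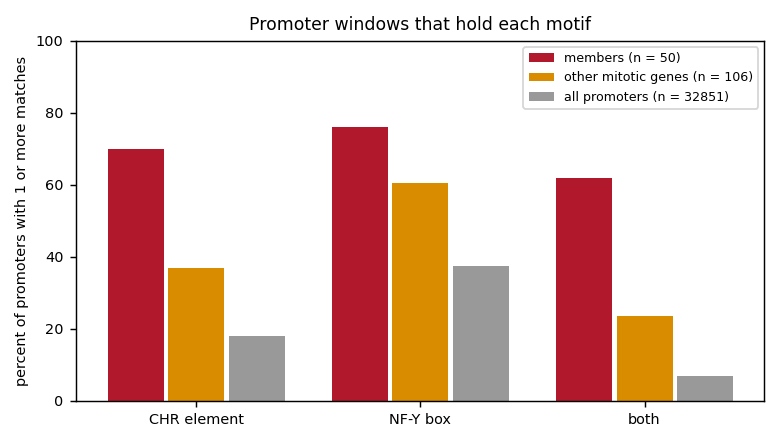
Percent of promoter windows (y axis) that hold at least 1 CHR element, at least 1 NF-Y box, or both (x axis), for members (red, 50 windows), other mitotic genes (orange, 106) and all promoters (grey, 32851). Members stand highest for each motif, at 70.0%, 76.0% and 62.0%.

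The windows below run 5′ to 3′ from 150 bases before to 50 after the start, with every match to TTTGAA or to the box CCAAT, on either strand, in capitals. They are those of 3 genes that rose strongly and hold both motifs (Cdk1, Plk1 and Cdc20), of Nuf2, which rose by at least 16.0-fold and holds neither, of Bub3 and Cenpa, which hold both and changed little or not past the test, and of Pttg1, which fell and holds neither.
Cdk1: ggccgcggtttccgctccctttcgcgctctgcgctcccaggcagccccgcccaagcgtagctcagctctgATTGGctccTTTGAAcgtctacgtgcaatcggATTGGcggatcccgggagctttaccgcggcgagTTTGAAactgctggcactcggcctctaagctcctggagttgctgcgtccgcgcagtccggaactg
Plk1: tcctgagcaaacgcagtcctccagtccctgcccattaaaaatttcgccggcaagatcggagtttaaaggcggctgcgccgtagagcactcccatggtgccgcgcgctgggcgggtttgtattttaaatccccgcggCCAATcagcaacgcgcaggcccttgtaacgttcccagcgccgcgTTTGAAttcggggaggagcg
Cdc20: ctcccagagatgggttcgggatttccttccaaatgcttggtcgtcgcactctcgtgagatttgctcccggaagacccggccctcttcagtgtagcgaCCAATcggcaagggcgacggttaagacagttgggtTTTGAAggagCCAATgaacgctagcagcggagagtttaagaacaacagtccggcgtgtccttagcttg
Nuf2: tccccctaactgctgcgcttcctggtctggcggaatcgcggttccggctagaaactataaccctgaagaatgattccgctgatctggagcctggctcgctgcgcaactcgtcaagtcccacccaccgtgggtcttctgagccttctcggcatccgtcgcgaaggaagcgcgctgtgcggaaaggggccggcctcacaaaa
Bub3: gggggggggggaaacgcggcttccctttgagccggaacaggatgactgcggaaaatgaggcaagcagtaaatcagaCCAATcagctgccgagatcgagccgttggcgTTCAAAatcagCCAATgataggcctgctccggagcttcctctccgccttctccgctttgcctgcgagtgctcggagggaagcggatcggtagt
Cenpa: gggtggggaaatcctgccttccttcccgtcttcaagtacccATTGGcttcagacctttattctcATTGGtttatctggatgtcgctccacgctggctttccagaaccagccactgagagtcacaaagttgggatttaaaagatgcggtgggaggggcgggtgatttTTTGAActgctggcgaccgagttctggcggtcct
Pttg1: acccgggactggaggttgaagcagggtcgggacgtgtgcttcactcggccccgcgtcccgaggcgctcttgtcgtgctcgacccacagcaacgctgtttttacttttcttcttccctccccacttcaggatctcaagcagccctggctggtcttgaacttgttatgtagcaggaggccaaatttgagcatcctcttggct
In the same order they lie at chr10:69352863-69353062 (minus strand), chr7:122159285-122159484 (plus), chr4:118437294-118437493 (minus), chr1:169531415-169531614 (minus), chr7:131560220-131560419 (plus), chr5:30666736-30666935 (plus) and chr11:43425932-43426131 (minus). The Cdk1 window holds the CHR letters at -71 and -15 and CCAAT letters at -80 and -48, counted from the start to the leftmost base of each match, with a further CCAAT outside the printed stretch. In Cdc20 the CHR letters begin at -18, between CCAAT boxes at -53 and -8. No match in a window says only that these letters are not there. Bub3 has a second annotated start, whose window overlaps the first and holds the same matches.

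All 11 genes of mitotic entry rose at MI 3 days, with a median log2 change of 3.81. Cdk1, the kinase that drives entry, had levels of -2.09, -2.14, -1.84, -2.63 and -3.16 in the MI 14 days hearts, 1.05, 1.46, 1.33, 1.48 and 1.25 in the MI 3 days hearts and -2.56, -3.25, -5.13 and -2.68 in the sham hearts. Every MI 3 days array lay well above every other array, and sham replicate 3 lay lowest of all 14. The change at MI 3 days was 4.72 ± 0.43 on the log2 scale (26.3-fold higher, adjusted p = 4.38e-07, limma), and at MI 14 days it was 1.03 ± 0.43 and did not pass (adjusted p = 0.0807). The gene's 3 tested probes did not all pass at MI 3 days: the second had a change of 0.29 ± 0.31 (adjusted p = 0.435) and the third passed as higher, by at least 1.63-fold, with neither MI 14 days nor sham above background. Which transcripts each probe reads was not tested.

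Plk1, a kinase of spindle assembly and mitotic exit, had levels of -1.02, -1.51, 0.08, -1.24 and -1.48 in the MI 14 days hearts, 2.68, 3.01, 2.93, 3.17 and 3.07 in the MI 3 days hearts and -1.26, -1.95, -1.98 and -1.26 in the sham hearts. The MI 3 days arrays again stood apart, while MI 14 days and sham overlapped with MI 14 days replicate 3 the highest outside MI 3 days. It rose by 4.58 ± 0.28 (24.0-fold, adjusted p = 1.62e-08, limma). The mitotic cyclins Ccnb1, Ccna2 and Ccnb2 rose by 4.50 ± 0.34, 3.91 ± 0.22 and 3.81 ± 0.25 at MI 3 days, and none of the 3 passed at MI 14 days. Melk, a kinase expressed in dividing cells, rose by 4.49 ± 0.33, and Aurka, the centrosomal Aurora kinase, by 3.77 ± 0.20. Foxm1, a transcription factor of late cell cycle genes, rose by 2.37 ± 0.13 at MI 3 days and was at -0.04 ± 0.13 at MI 14 days. Plk4, the kinase of centriole duplication, was at least 3.51-fold higher and the Cdk1 phosphatase gene Cdc25c at least 2.79-fold higher at MI 3 days, both with sham not above background.

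Cdc25b, another phosphatase that activates Cdk1, had the smallest fitted rise of the group. Its levels were -0.40, -0.62, 0.12, -0.09 and -0.37 in the MI 14 days hearts, 0.53, 0.87, 0.93, 0.94 and 0.96 in the MI 3 days hearts and -0.67, -0.93, -0.91 and -0.60 in the sham hearts. The MI 3 days arrays lay above all others, and the MI 14 days arrays lay mostly above the sham arrays with a slight overlap. It rose by 1.63 ± 0.15 (3.09-fold, adjusted p = 3.7e-07) at MI 3 days and by 0.51 ± 0.15 (1.42-fold, adjusted p = 0.0163, limma) at MI 14 days. Aurka also passed at MI 14 days, by 0.57 ± 0.20 (adjusted p = 0.0433).

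**Figure D3:**
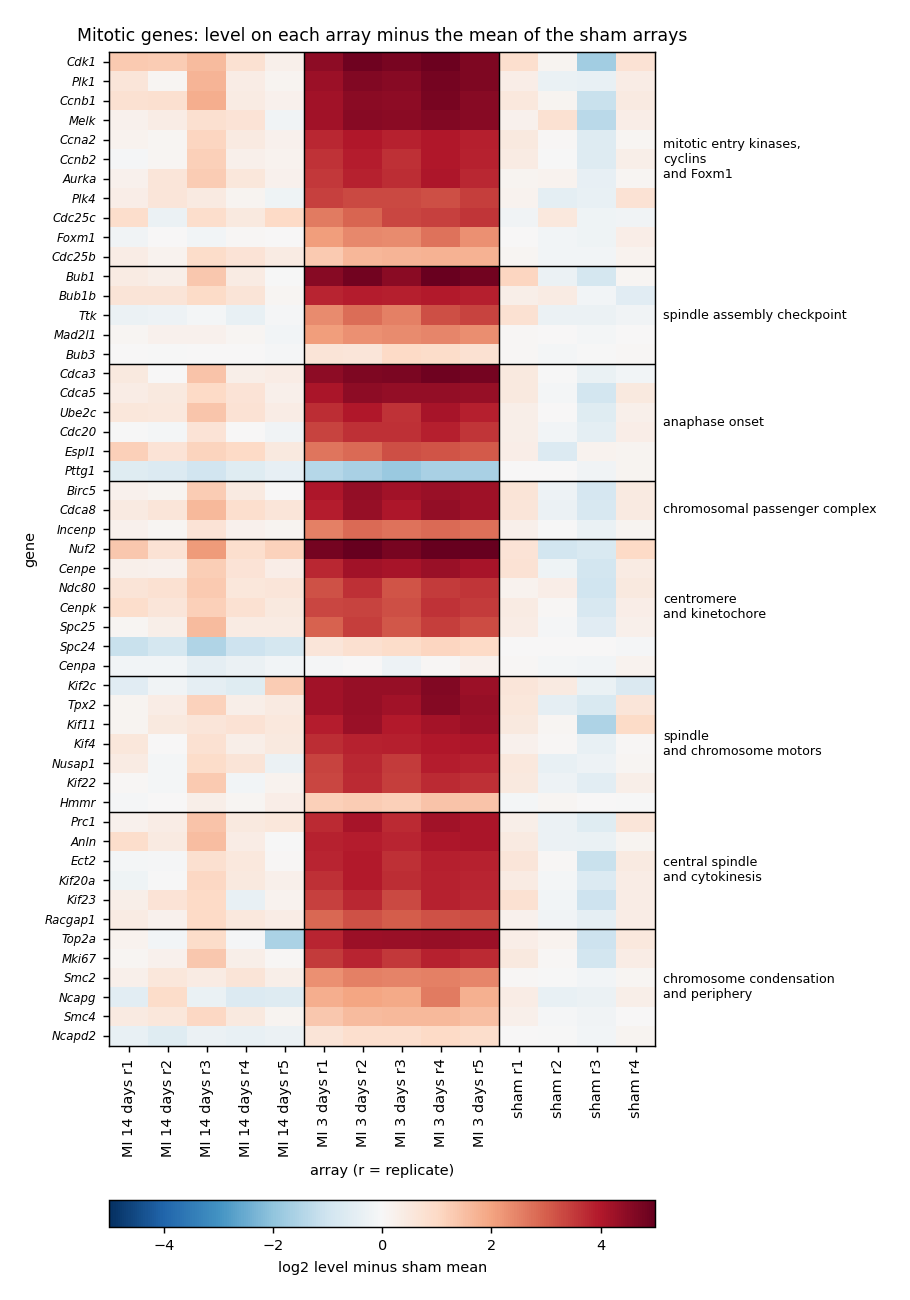
Level of each tested gene (y axis, grouped by role) on each array (x axis, MI 14 days, MI 3 days and sham) minus the mean of the sham arrays, in log2 units from blue (lower) to red (higher). The 5 MI 3 days columns are red for nearly every gene, MI 14 days replicate 3 is the reddest column of its group, sham replicate 3 the bluest of its own, and Pttg1 is the blue line at MI 3 days.

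All 5 genes of the spindle assembly checkpoint rose at MI 3 days. Bub1, a checkpoint kinase, had levels of -4.82, -4.93, -3.88, -4.84 and -5.26 in the MI 14 days hearts, -0.69, -0.41, -0.71, -0.28 and -0.41 in the MI 3 days hearts and -4.18, -5.55, -6.10 and -5.12 in the sham hearts. The MI 3 days arrays formed a tight set above the rest, and the other groups overlapped. Bub1 rose by 4.74 ± 0.33 (26.7-fold, adjusted p = 4.28e-08, limma), with only 1 sham and 1 MI 14 days scanner array above background. Bub1b, which encodes the checkpoint protein BubR1, had levels of -3.57, -3.55, -3.23, -3.54 and -4.09 in the MI 14 days hearts, -0.41, -0.27, -0.32, -0.23 and -0.30 in the MI 3 days hearts and -3.92, -3.80, -4.34 and -4.75 in the sham hearts. It rose by 3.90 ± 0.19 at MI 3 days (14.9-fold, adjusted p = 2.28e-09) and by 0.61 ± 0.19 at MI 14 days (adjusted p = 0.0235), where its arrays overlapped those of sham. Mad2l1, which holds Cdc20 inactive, rose by 2.30 ± 0.09, and the kinase gene Ttk was at least 2.33-fold higher.

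Bub3, which brings the checkpoint proteins to the kinetochore, had the smallest fitted rise of the 49. Its levels were 2.35, 2.30, 2.32, 2.33 and 2.24 in the MI 14 days hearts, 2.94, 2.91, 3.30, 3.24 and 3.06 in the MI 3 days hearts and 2.38, 2.20, 2.29 and 2.38 in the sham hearts. The MI 3 days arrays were all higher than any other, and the MI 14 days arrays lay within the sham range. The change was 0.78 ± 0.09 (1.71-fold, adjusted p = 4.09e-06, limma) at MI 3 days and -0.01 ± 0.09 at MI 14 days (adjusted p = 0.96).

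Of the 6 genes of anaphase onset, 5 rose at MI 3 days and Pttg1 fell. Cdca3, a trigger of mitotic entry that acts in the destruction of Wee1, had levels of -2.36, -2.85, -1.45, -2.55 and -2.49 in the MI 14 days hearts, 1.61, 1.81, 1.84, 2.01 and 1.94 in the MI 3 days hearts and -2.36, -2.87, -3.19 and -2.99 in the sham hearts. It rose by 4.70 ± 0.24 (26.0-fold, adjusted p = 3.27e-09, limma). Cdca5, which encodes sororin, the protector of cohesin, had levels of -2.90, -2.78, -2.27, -2.59 and -3.01 in the MI 14 days hearts, 0.80, 1.18, 1.10, 1.12 and 1.07 in the MI 3 days hearts and -2.77, -3.36, -4.18 and -2.79 in the sham hearts. The rise of Cdca5 was 4.33 ± 0.25 (20.1-fold, adjusted p = 8.38e-09). For both genes the MI 3 days arrays were clear of the rest, and MI 14 days did not pass against sham.

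Cdc20, the activator of the anaphase-promoting complex, rose by 3.63 ± 0.20 at MI 3 days and was at 0.08 ± 0.20 at MI 14 days (adjusted p = 0.8, limma). Ube2c, the ubiquitin-conjugating enzyme that works with that complex, had levels of -0.69, -0.74, 0.13, -0.54 and -0.87 in the MI 14 days hearts, 2.45, 2.74, 2.37, 2.86 and 2.65 in the MI 3 days hearts and -0.95, -1.22, -1.84 and -0.98 in the sham hearts. All MI 14 days arrays lay above all sham arrays, by a small margin. It rose by 3.86 ± 0.21 at MI 3 days and 0.71 ± 0.21 at MI 14 days (adjusted p = 0.0212). The second Ube2c probe stood at 0.61 ± 0.30 at MI 14 days and did not pass (adjusted p = 0.138, limma). Espl1, which encodes separase, had levels of -2.46, -2.95, -2.55, -2.66 and -3.15 in the MI 14 days hearts, -0.96, -0.82, -0.42, -0.51 and -0.58 in the MI 3 days hearts and -3.30, -4.32, -3.46 and -3.52 in the sham hearts. Its groups were separate at each step, and it rose by 2.99 ± 0.20 (7.96-fold) at MI 3 days and 0.90 ± 0.20 (1.86-fold, adjusted p = 0.00446, limma) at MI 14 days.

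Pttg1 encodes securin, the inhibitor of separase. Its levels were 5.69, 5.60, 5.32, 5.66 and 5.87 in the MI 14 days hearts, 4.85, 4.67, 4.44, 4.65 and 4.67 in the MI 3 days hearts and 6.31, 6.30, 6.11 and 6.42 in the sham hearts. The 3 groups did not overlap, with sham highest and MI 3 days lowest. The change was -1.63 ± 0.11 at MI 3 days (adjusted p = 4.29e-08, limma) and -0.66 ± 0.11 at MI 14 days (1.58-fold lower, adjusted p = 0.000895). Its other probe fell as well, with changes of -1.07 ± 0.11 at MI 3 days and -0.38 ± 0.11 at MI 14 days (adjusted p = 0.019). Pttg1 was thus the 1 member that passed as lower at MI 3 days, and the inhibitor fell while its partner Espl1 rose.

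All 3 tested genes of the chromosomal passenger complex, which corrects wrong attachments and later directs cytokinesis, rose at MI 3 days. Birc5, which encodes survivin, had levels of -0.11, -0.18, 0.95, 0.11 and -0.32 in the MI 14 days hearts, 3.72, 4.09, 3.86, 3.99 and 3.91 in the MI 3 days hearts and 0.33, -0.58, -1.17 and 0.12 in the sham hearts. The MI 3 days arrays were tightly placed, while the sham arrays spread widely. The rise was 4.24 ± 0.29 (18.9-fold, adjusted p = 4.14e-08, limma), and at MI 14 days Birc5 did not pass (adjusted p = 0.306). Cdca8, which encodes borealin, had levels of -1.09, -0.92, 0.10, -0.70 and -0.92 in the MI 14 days hearts, 2.38, 2.84, 2.52, 2.87 and 2.72 in the MI 3 days hearts and -0.92, -1.81, -2.31 and -1.06 in the sham hearts. It rose by 4.19 ± 0.28 at MI 3 days and 0.82 ± 0.28 at MI 14 days (adjusted p = 0.0402), where its second probe stood at -0.29 ± 0.48 and did not pass.

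Incenp, the scaffold of the complex, was the least changed of the 3. Its levels were 1.03, 0.93, 1.49, 1.03 and 0.95 in the MI 14 days hearts, 3.35, 3.64, 3.53, 3.63 and 3.59 in the MI 3 days hearts and 1.07, 0.78, 0.48 and 0.95 in the sham hearts. The rise at MI 3 days was 2.73 ± 0.14 (6.64-fold, adjusted p = 3.22e-09, limma), and MI 14 days replicate 3 was set apart from the other 4 MI 14 days arrays. Aurkb was above background on none of the 10 scanner arrays, and its mean level was -6.32 ± 0.11 at MI 14 days, -5.70 ± 1.22 at MI 3 days and -6.35 ± 0.18 in sham (SD, n = 5, 5 and 4). A change of Aurkb was not tested.

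Of the 7 tested genes of the centromere and kinetochore, 6 rose at MI 3 days. Nuf2, a subunit of the Ndc80 complex that binds microtubules, had levels of -4.07, -4.67, -3.27, -4.55 and -4.24 in the MI 14 days hearts, -0.63, -0.19, -0.67, -0.14 and -0.14 in the MI 3 days hearts and -4.72, -6.34, -6.15 and -4.42 in the sham hearts. It was above background on none of the sham scanner arrays, so the rise was at least 16.0-fold at MI 3 days (adjusted p = 9.11e-08, limma) and at least 1.14-fold at MI 14 days (adjusted p = 0.0237). At MI 14 days its arrays overlapped those of sham, and only 2 scanner arrays were above background. On the 10 scanner arrays the MI 14 days call was lost with the slide as a block (adjusted p = 0.17, limma). With normexp on those arrays the log2 change was 0.15 (adjusted p = 0.276), below the bound of 0.19. Cenpe, a kinesin that moves chromosomes to the spindle equator, had levels of -1.62, -1.65, -0.64, -1.22 and -1.53 in the MI 14 days hearts, 1.88, 2.32, 2.24, 2.44 and 2.22 in the MI 3 days hearts and -1.18, -2.09, -2.79 and -1.49 in the sham hearts. The Cenpe rise was 4.11 ± 0.29 (17.2-fold, adjusted p = 4.47e-08).

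Ndc80 had levels of -2.97, -2.86, -2.32, -3.09 and -3.03 in the MI 14 days hearts, -0.44, 0.03, -0.51, -0.15 and -0.06 in the MI 3 days hearts and -3.46, -3.30, -4.62 and -3.16 in the sham hearts. Cenpk, of the inner kinetochore, had levels of -2.12, -2.39, -1.80, -2.26 and -2.50 in the MI 14 days hearts, 0.33, 0.37, 0.21, 0.61 and 0.49 in the MI 3 days hearts and -2.59, -2.94, -3.81 and -2.66 in the sham hearts. For both genes every MI 14 days array was above every sham array, with MI 3 days higher still. The rises were 3.41 ± 0.26 at MI 3 days and 0.78 ± 0.26 at MI 14 days for Ndc80 (adjusted p = 0.0333 at 14 days, limma). For Cenpk they were 3.40 ± 0.22 at MI 3 days and 0.79 ± 0.22 at MI 14 days (adjusted p = 0.0137 at 14 days). Spc25, also of the Ndc80 complex, rose by 3.25 ± 0.27 at MI 3 days and did not pass at MI 14 days.

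Spc24, the partner of Spc25, had a pattern that among the members only Ncapd2 shared, higher than sham at MI 3 days and lower at MI 14 days. Its levels were -1.68, -1.43, -2.07, -1.61 and -1.44 in the MI 14 days hearts, 0.05, 0.23, 0.34, 0.51 and 0.42 in the MI 3 days hearts and -0.53, -0.54, -0.56 and -0.63 in the sham hearts. The 3 groups were fully separate, with MI 3 days above sham and MI 14 days below it. Spc24 rose by 0.88 ± 0.13 at MI 3 days (1.84-fold, adjusted p = 3.82e-05, limma) and fell at MI 14 days, with a change of -1.08 ± 0.13 (2.11-fold lower, adjusted p = 6.63e-05). The difference of MI 14 days from MI 3 days was -1.96 ± 0.12 (adjusted p = 3.54e-08).

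Cenpa, the centromeric histone variant on which the kinetochore is built, was the only tested member that passed in none of the 3 comparisons in the fit of all 14 arrays. Its levels were 2.03, 2.02, 1.72, 1.90 and 2.04 in the MI 14 days hearts, 2.13, 2.20, 1.91, 2.23 and 2.39 in the MI 3 days hearts and 2.23, 2.10, 2.04 and 2.34 in the sham hearts. The MI 3 days and sham arrays overlapped, and every MI 14 days array lay just below every sham array. The change was -0.0036 ± 0.11 at MI 3 days (adjusted p = 0.979, limma) and -0.24 ± 0.11 at MI 14 days (adjusted p = 0.109). Between the times it was -0.23 ± 0.10 (adjusted p = 0.0646). That difference passed with arrays centred on their median (-0.43, adjusted p = 0.00564, limma) and on the 10 scanner arrays (-0.39, adjusted p = 0.0442). It also passed with the replicate number as a block (adjusted p = 0.0262) and without MI 3 days replicate 3 (adjusted p = 0.019). With that block MI 14 days was also lower than sham (-0.28, adjusted p = 0.0304). Cenpf was above background on 1 of the 2 MI 3 days scanner arrays, on 1 of 4 sham arrays and on no MI 14 days array, with mean levels of -5.92 ± 0.68 at MI 14 days, -4.52 ± 0.60 at MI 3 days and -4.71 ± 0.49 in sham (SD, n = 5, 5 and 4).

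**Figure D4:**
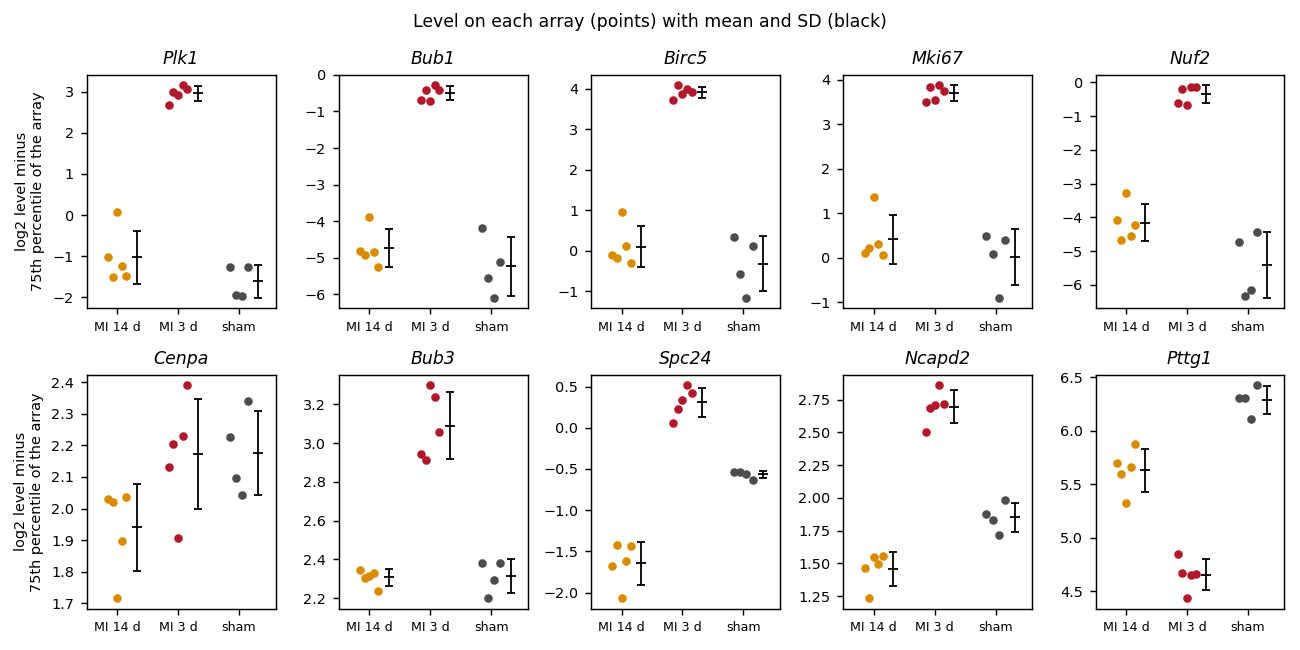
Level of 10 genes (y axis, log2 minus the 75th percentile of the array, each panel with its own range) on each array, as points for MI 14 days, MI 3 days and sham (x axis), with mean and SD in black. Plk1, Bub1, Birc5, Mki67 and Nuf2 stand clear of sham at MI 3 days, Cenpa overlaps, Bub3 shifts by 0.78, Spc24 and Ncapd2 lie above sham at MI 3 days and below it at MI 14 days, and Pttg1 lies below sham at both times.

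All 7 genes of spindle and chromosome motors and their partners rose at MI 3 days. Kif2c, a kinesin that takes microtubules apart at centromeres, had levels of -6.44, -6.05, -6.31, -6.46 and -4.57 in the MI 14 days hearts, -1.68, -1.50, -1.51, -1.24 and -1.60 in the MI 3 days hearts and -5.24, -5.43, -6.21 and -6.57 in the sham hearts. Neither MI 14 days nor sham was above background, so the rise was at least 7.20-fold (adjusted p = 1.92e-07, limma). Tpx2, the activator of Aurka on spindles, had levels of -2.75, -2.53, -1.74, -2.58 and -2.43 in the MI 14 days hearts, 1.32, 1.49, 1.33, 1.70 and 1.47 in the MI 3 days hearts and -2.30, -3.32, -3.64 and -2.27 in the sham hearts. Its rise was 4.35 ± 0.27 (20.4-fold, adjusted p = 1.95e-08), and its second probe, of another transcript accession, rose by 0.85 ± 0.25.

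Kif11, which pushes spindle poles apart, rose by 4.13 ± 0.36, Nusap1, a bundler of spindle microtubules, by 3.69 ± 0.25, and Kif22, a chromosome arm kinesin, by 3.58 ± 0.28. Kif4, a chromokinesin, was at least 11.1-fold higher at MI 3 days, and it passed at MI 14 days (adjusted p = 0.0392, limma) with neither MI 14 days nor sham above background, so no fold is given there. Hmmr, a hyaluronan receptor that also binds spindle microtubules, had the smallest fitted rise, at 1.30 ± 0.10 (2.46-fold, adjusted p = 7.2e-08). Hmmr levels were 0.25, 0.34, 0.59, 0.39 and 0.64 in the MI 14 days hearts, 1.50, 1.57, 1.50, 1.72 and 1.72 in the MI 3 days hearts and 0.19, 0.40, 0.33 and 0.29 in the sham hearts. Even this small rise set the MI 3 days arrays apart from the rest.

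The 6 genes of the central spindle and cytokinesis all rose at MI 3 days, by between 3.12 and 3.96 on the log2 scale. Prc1, which bundles the antiparallel microtubules of the midzone, had levels of -0.85, -0.67, 0.38, -0.58 and -0.50 in the MI 14 days hearts, 2.66, 3.05, 2.67, 3.14 and 3.02 in the MI 3 days hearts and -0.77, -1.34, -1.66 and -0.45 in the sham hearts. It rose by 3.96 ± 0.26 (15.6-fold, adjusted p = 2.96e-08, limma). Anln, which encodes the ring scaffold anillin, had levels of -0.47, -0.89, 0.19, -0.97 and -1.35 in the MI 14 days hearts, 2.52, 2.60, 2.47, 2.73 and 2.74 in the MI 3 days hearts and -0.87, -1.62, -1.66 and -1.18 in the sham hearts. The Anln rise was 3.94 ± 0.26 (15.4-fold, adjusted p = 2.37e-08). In both genes MI 14 days replicate 3 was the highest of its group.

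Racgap1, which with Kif23 forms centralspindlin, had levels of -1.10, -1.28, -0.50, -0.98 and -1.13 in the MI 14 days hearts, 1.37, 1.69, 1.53, 1.67 and 1.77 in the MI 3 days hearts and -1.28, -1.68, -1.95 and -1.13 in the sham hearts. It rose by 3.12 ± 0.18 at MI 3 days (8.68-fold) and 0.51 ± 0.18 at MI 14 days (adjusted p = 0.0416, limma), where MI 14 days and sham arrays overlapped. Kif23 rose by 3.62 ± 0.33, Ect2, the exchange factor that activates RhoA at the cleavage site, by 3.82 ± 0.29, and Kif20a, a kinesin of the midzone, by 3.79 ± 0.25 at MI 3 days. None of these 3 passed at MI 14 days.

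All 6 tested genes of chromosome condensation and the chromosome periphery rose at MI 3 days. Top2a, the topoisomerase that untangles sister chromatids, had levels of -3.07, -3.36, -2.30, -3.30 and -4.80 in the MI 14 days hearts, 0.58, 1.06, 1.10, 1.13 and 1.06 in the MI 3 days hearts and -2.89, -3.06, -4.28 and -2.69 in the sham hearts. Its rise was 4.22 ± 0.41 (18.6-fold, adjusted p = 8.48e-07, limma), and at MI 14 days its change was -0.14 ± 0.41. Mki67, which encodes the proliferation marker Ki-67 that coats mitotic chromosomes, had levels of 0.10, 0.23, 1.38, 0.31 and 0.06 in the MI 14 days hearts, 3.50, 3.83, 3.54, 3.88 and 3.76 in the MI 3 days hearts and 0.50, 0.08, -0.90 and 0.39 in the sham hearts. It rose by 3.68 ± 0.29 (12.8-fold, adjusted p = 1.4e-07) and did not pass at MI 14 days (adjusted p = 0.327). At MI 14 days, 4 of the 5 Mki67 levels lay within the sham range and replicate 3 above it.

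The condensin subunits differed among themselves. Smc2 and Smc4, the ATPases shared by both condensins, rose by 2.45 ± 0.09 and 1.54 ± 0.15 at MI 3 days and by 0.43 ± 0.09 (adjusted p = 0.00392) and 0.54 ± 0.15 (adjusted p = 0.0123, limma) at MI 14 days. Ncapg, of condensin I, was dim, at least 1.52-fold higher at MI 3 days. Ncapd2, also of condensin I, had levels of 1.46, 1.23, 1.55, 1.49 and 1.55 in the MI 14 days hearts, 2.51, 2.69, 2.71, 2.86 and 2.72 in the MI 3 days hearts and 1.88, 1.83, 1.72 and 1.98 in the sham hearts. The 3 groups did not overlap, with MI 3 days above sham and MI 14 days below. Ncapd2 rose by 0.84 ± 0.09 at MI 3 days (1.80-fold, adjusted p = 2.67e-06) and fell at MI 14 days, with a change of -0.39 ± 0.09 (1.31-fold lower, adjusted p = 0.0059). Its call at MI 14 days was lost on the 10 scanner arrays with the slide as a block (-0.36, adjusted p = 0.0564) and with normexp on those arrays (-0.20, adjusted p = 0.0728).

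Of the 49 genes that rose at MI 3 days, 13 passed as higher at MI 14 days too, 34 did not pass there and 2, Spc24 and Ncapd2, were lower. The 13 were Cdc25b, Aurka, Bub1b, Ube2c, Espl1, Cdca8, Cenpk, Ndc80, Nuf2, Kif4, Racgap1, Smc2 and Smc4. For 6 of the 51 genes every MI 14 days array lay above every sham array, where 10.3% of all tested probes did so, and 4 genes lay wholly below, where 17.2% of all did. Without sham replicate 3 the count of higher genes at MI 14 days was 5, and without MI 14 days replicate 3 it was 6. The genes that passed in every fit that left out 1 array were Cdc25b, Espl1, Cenpk, Smc2 and Smc4, which makes 5 of the 13. On the 10 scanner arrays with the slide as a block none of the 13 passed and the count was 1 (Cdc25c), while the MI 3 days counts stayed at 49 higher and 1 lower. The slide is the glass that carried several arrays, and it was known for these 10 arrays.

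Within slides the MI 3 days rise stood in each pair of arrays available. On slide 2, with 1 MI 3 days and 1 sham array, 50 of 51 genes were higher at MI 3 days with a median difference of 4.42, and on slide 3, again with 1 array of each, 50 of 51 were higher with a median of 3.44. At MI 14 days the within-slide values were small: 30 of 51 were higher on slide 1 (1 MI 14 days and 2 sham arrays, median 0.06) and 39 of 51 on slide 3 (3 MI 14 days and 1 sham array, median 0.24). Pttg1, Spc24 and Ncapd2 were lower at MI 14 days on both slides. Between the times, 50 of 51 genes were lower at MI 14 days on slide 3, with a median of -3.26.

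The members varied together between arrays of a group. The median level of the 51 was -1.90, -1.65, -1.10, -1.61 and -1.91 on the MI 14 days arrays, 1.32, 1.49, 1.40, 1.69 and 1.51 on the MI 3 days arrays and -1.73, -2.07, -2.54 and -1.61 on the sham arrays. MI 14 days replicate 3 was the highest of its group for 35 of the 51 genes, and sham replicate 3 the lowest of its group for 39. Sham replicate 3 had the lowest 75th percentile of the sham arrays (197 intensity units) and their lowest share of probes well above background (55.8%). MI 14 days replicate 3 had the lowest such share of its group's scanner arrays (56.2%). At MI 3 days, replicate 1 was the lowest for 38 genes and replicate 4 the highest for 32. Such counts were not made over all tested probes. The median SD of the members was 0.39 at MI 14 days and 0.46 in sham, against 0.22 and 0.18 over all tested probes, while at MI 3 days it was 0.17 against 0.18. The source of this shared variation was not tested.

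Further mitotic genes, 116 by name of which 114 were tested, are given by list. At MI 3 days 84 rose and 13 fell (73.7% and 11.4%, against 25.5% and 39.7% of all tested probes), and at MI 14 days 17 were higher and 16 lower than sham (14.9% and 14.0%, against 12.8% and 19.8%). For 19 of the 114, MI 3 days or sham was above background on none of its scanner arrays, so the filter itself can favour a change there. Those of the 114 that passed the filter only through MI 3 days were not counted apart. Of 18 genes of the constitutive centromere network and Cenpa loading, 17 rose at MI 3 days: Cenph by at least 26.1-fold and Cenpm by at least 6.52-fold, while Cenpx stood at -0.07 ± 0.12. Of 17 outer kinetochore genes 16 rose, led by Ska1 at 4.66 ± 0.57 and Kntc1 at 4.61 ± 0.41, and Zw10, of the complex that recruits dynein, fell with a change of -0.28 ± 0.11 (adjusted p = 0.0405, limma). The Zw10 arrays at MI 3 days and sham overlapped.

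Among 29 tested genes of spindle, centrosome and cytokinesis, 24 rose and 2 fell at MI 3 days, with Nek2, a centrosomal kinase, at least 8.43-fold and Fam83d at least 6.44-fold higher. Tubg1, the gamma tubulin of centrosomes, stood at -0.10 ± 0.09. Of 20 entry regulators and subunits of the MuvB and B-Myb complexes, 17 rose and 2 fell, led by the kinase gene Pbk at 4.74 ± 0.40 and Cks2, a Cdk1 partner, at 4.06 ± 0.21, with Lin37 at -0.10 ± 0.07. Of 16 tested genes of the anaphase-promoting complex and its inhibitors 5 rose (31.2%) and 6 fell (37.5%). These shares were near those of all tested probes (25.5% and 39.7%). Fbxo5, which encodes the inhibitor Emi1, stood at 3.00 ± 0.12, Anapc13, a small subunit, at -1.07 ± 0.13 (adjusted p = 6.2e-06, limma) and Anapc7 at 0.04 ± 0.06. Of 14 genes of cohesin and condensin 5 rose (35.7%) and 2 fell (14.3%), with Ncapg2 at 3.81 ± 0.17, Esco2 at least 3.91-fold higher and Ncaph2 at -0.01 ± 0.10.

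**Figure D5:**
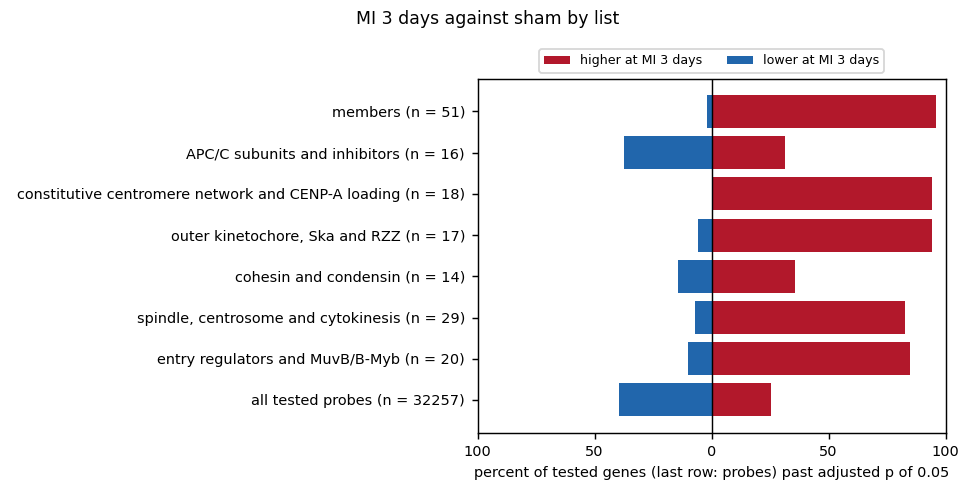
Percent of tested genes that passed as higher (red, right of 0) or lower (blue, left of 0) at MI 3 days against sham (x axis), for the members, 6 lists of other mitotic genes and all tested probes (y axis). The members reach 96.1% higher, the list of the anaphase-promoting complex 31.2% higher and 37.5% lower, and all tested probes 25.5% higher and 39.7% lower.

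Markers of the cell types that the border zone can hold are read against the 25.5% of all tested probes that rose and the 39.7% that fell at MI 3 days. At MI 14 days 12.8% of all tested probes were higher and 19.8% lower than sham. Sums below are of linear levels over a list's tested markers, as the range over the arrays of a group, and since they add different probes, a bright probe can carry them. Sums without the brightest marker were added after seeing the data. Of 8 tested macrophage and monocyte markers 7 rose at MI 3 days (Ccr2 by 4.15 ± 0.21, Lyz2 by 2.03 ± 0.25) and Itgam fell, with sums of 189 to 218 at MI 14 days, 163 to 217 at MI 3 days and 167 to 222 in sham. Itgam alone made up 40.7% to 85.0% of that sum, and without it the sums were 40.4 to 58.8 at MI 14 days, 69.5 to 129 at MI 3 days and 33.3 to 43.4 in sham. Of 6 neutrophil markers 5 rose and Csf3r fell, with sums of 214 to 238 at MI 14 days, 191 to 271 at MI 3 days and 208 to 228 in sham. Csf3r alone made up 68.4% to 99.1% of that sum, and without it the sums were 1.89 to 9.15 at MI 14 days, 20.5 to 79.3 at MI 3 days and 2.46 to 6.65 in sham. Mmp9 was not above background at MI 14 days or in sham. Of 8 fibroblast markers 6 rose and 1 fell at MI 3 days and all 8 rose at MI 14 days, with sums of 1008 to 1454 at MI 14 days, 718 to 1007 at MI 3 days and 399 to 419 in sham. Dcn alone made up 21.4% to 74.8% of that sum. Without Dcn the sums were 497 to 860 at MI 14 days, 517 to 783 at MI 3 days and 101 to 135 in sham, so the 2 MI groups overlapped. All 8 cardiomyocyte markers fell at MI 3 days and 4 fell at MI 14 days, with sums of 2919 to 4475 at MI 14 days, 1803 to 2060 at MI 3 days and 3405 to 4128 in sham. Of 8 endothelial markers 2 rose (25%) and 3 fell (37.5%) at MI 3 days, shares near those of all tested probes, with sums of 46.1 to 49.0 at MI 14 days, 40.3 to 48.3 at MI 3 days and 48.8 to 52.1 in sham. Of 7 smooth muscle and pericyte markers 2 rose (28.6%) and 4 fell (57.1%), with sums of 76.8 to 87.4 at MI 14 days, 79.6 to 112 at MI 3 days and 84.6 to 103 in sham. Acta2 made up 27.1% to 69.8% of that sum, and without it the sums were 53.4 to 57.2 at MI 14 days, 24.1 to 35.4 at MI 3 days and 50.5 to 64.4 in sham. Of 6 markers of T, B and NK cells 1 rose (16.7%) and 1 fell (16.7%), with sums of 6.02 to 7.13 at MI 14 days, 5.57 to 6.998 at MI 3 days and 6.34 to 7.20 in sham. Cd68 and Ncr1 were not tested, and the part of any cell type in the rise of the mitotic genes was not tested.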

How the data were processed

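RNA of 14 heart samples was measured on 1-colour Agilent arrays. The value table deposited by the authors holds linear Cy3 intensity per probe. For single-spot probes it equals the processed signal of the 10 deposited scanner outputs (tolerance 1e-05), made with Feature Extraction 10.7.3.1, per the file headers. The submitters' processing notes name limma with no role. The labels mention poly-T beads as well as 200 ng of total RNA, so the RNA labelled is not settled.

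From the intensity deposited by the authors, log2 minus each array's 75th percentile was fitted without covariates over all 14 arrays (two-sided limma 3.58.1 on R 4.3.3, moderated with eBayes). The filter kept a probe if, in some group, each scanner array flagged it well above background: 32257 of 55482. No gene names are in the files, so accessions named 27144 probes through a RefSeq table (GRCm38.p6), where the plan had a gene name column. A bound sets the bright group's mean against the higher of the dim probe's own value and the lowest signal among probes above background. Precision is limited by how many arrays each group has. The steps were tested on simulated data.

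The members and lists were chosen with earlier results of these data known. All members are named. Values on every array are given, in each role group, for the 2 largest changes and the smallest at MI 3 days, for members that fell or did not pass there or fell at MI 14 days, and for the 6 largest changes past the test at MI 14 days. The other lists give the 2 changes of largest size and the smallest. Alternatives covered scaling, filter, background correction, slide, replicate number, arrays and probes. Replicate numbers are not stated to pair mice.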

Additional observations from a re-analysis of the deposited data

Results flagged for a closer look

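In 153 sets of levels, each of 1 gene in 1 group, 17 had an array far from the others by Dixon's test at 95%, and chance gives about 1 in 20 such sets. At MI 14 days replicate 3 stood above the other 4 arrays for 7 genes: Ccnb2 at 0.34, Cdc20 at 0.17, Incenp at 1.49, Spc25 at 1.28, Kif22 at -0.15, Prc1 at 0.38 and Mki67 at 1.38. These 7 genes share 1 array, so they are not 7 separate events. In the same group Kif2c was high on replicate 5 at -4.57, Ncapg was high on replicate 2 at -4.84 and Ncapd2 was low on replicate 2 at 1.23.

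At MI 3 days replicate 1 stood below the others for Cdc25b at 0.53, Melk at -0.27, Cdca5 at 0.80 and Top2a at 0.58, and replicate 4 stood above them for Ncapg at -3.17. In sham, Cdc25c on replicate 2 at -5.49 and Ttk on replicate 1 at -5.22 stood above the others, and both genes were not above background there.

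The change from sham differed between the times for 50 of the 51 genes, tested as MI 14 days against MI 3 days in limma. Spc24 and Ncapd2 were lower than sham at MI 14 days and higher than sham at MI 3 days, with differences between the times of -1.96 and -1.24 on the log2 scale.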

How the results depend on the processing

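At MI 3 days against sham no gene's call changed under any alternative that gave it a value. There 49 genes rose and 1 fell under each scaling, on the 10 scanner arrays alone, with the slide as a block and in each fit without 1 array. With only probes above background on every scanner array, 32 genes were tested, and 30 of them rose at MI 3 days while 30 were lower at MI 14 days than at MI 3 days. The count of 13 genes higher at MI 14 days than sham moved most. It was 6 without a filter, 8 with the strict filter, 5 in a fit of the 2 groups alone, 1 with the slide as a block and 5 to 16 over fits without 1 array, the lowest being 5 without sham replicate 3 and 6 without MI 14 days replicate 3. With the replicate number as a block, it was 7. Whether the numbers pair the hearts is not settled. The 13 same-numbered pairs correlated from -0.14 to 0.22, 5 of them above 0.1, and 6 correlated best with their own number. Such a check cannot exclude pairing.

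The planned correction of mean signals by normexp was not run, because the files used have no such column. In its place, chosen after seeing the data, normexp on median signals with offset 50 gave median changes of 2.10 at MI 3 days against sham and -2.06 at MI 14 days against MI 3 days, 3 genes higher at MI 14 days and 10536 probes past the test between the times. With the slide as a block 5082 probes passed at MI 14 days against sham and 9127 between the times, where the full set of arrays gave 10489 and 17945. Single-gene calls at MI 14 days against sham were lost in 93 and gained in 13 gene and setting pairs, and between the times gained in 4, all of Cenpa. No called change turned its direction. Centring arrays on their median moved the median of all probes to -0.01 at MI 3 days against sham, where it was -0.19, and the share of higher calls to 51.0%, where it was 39.1%. It moved that share to 38.6% between the times, where it was 58.8%, and the 75th percentile of tested probes moved it to 53.1% at MI 14 days against sham, where it was 39.3%. With normexp the share between the times was 48.2%. The causes were not tested.

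Limits: 7 tested members and the untested Aurkb were above background on no sham scanner array. Others, such as Bub1, Melk, Bub1b and Kif11, were so on only some, and their folds carry no bound. Background flags cover 10 of 14 arrays and 2 at MI 3 days, and the sham harvest time is unknown.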
